A study of Mus musculus with 32 samples.

Results

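The mitochondrial genome of the mouse carries 37 genes, and all of them were found among the 55385 genes counted in each RNA library of these preimplantation embryos. They were taken as every gene whose GENCODE M21 symbol starts with mt-, which gave 13 protein-coding genes, 2 ribosomal RNA genes and 22 transfer RNA genes, all annotated on chromosome M of GRCm38. Total RNA was sequenced from 16 libraries in 8 groups of 2. All embryos were wild type, came from B6D2F1/J eggs fertilized in vitro with B6D2F1/J sperm from mice of 6 to 8 weeks, and were cultured in KSOM medium. In the first experiment, embryos were held in 10 µM A-485, an inhibitor of the acetyltransferase activity of CBP and p300, or in its solvent DMSO, from 4 to 20 h post fertilization, and RNA was taken from zygotes and from 2-cell embryos early and late in that stage. The late 2-cell embryos of this experiment had therefore left the inhibitor. In the second experiment, embryos were held in 50 nM TSA (trichostatin A), an inhibitor of histone deacetylases, or in DMSO, from 8 to 28 h, and RNA was taken at the late 2-cell stage. The comparisons asked how the mitochondrial RNAs differed between stages and between inhibitor and DMSO at each stage.

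Mitochondrial genes are read from both strands of a small circular genome as long precursor RNAs. The transfer RNAs lie between most of the other genes, and their removal from the precursor frees the messenger and ribosomal RNAs. Most genes, including both ribosomal RNA genes, are encoded so that the transcript is read from the heavy-strand promoters, whereas mt-Nd6 and 8 of the 22 transfer RNAs are transcribed in the other direction. The coding genes make subunits of 4 complexes of oxidative phosphorylation, and no proteins of other kinds. The egg brings a large maternal pool of mitochondria, and replication of mitochondrial DNA is largely held back during cleavage. The polymerase, the transcription factors and the processing enzymes are all made from nuclear genes.

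Part of this genome has a close copy in the nucleus, which bears on every value of the genes inside it. Alignment of chromosome M (16299 bases) to the GRCm38 sequence placed the stretch from 6390 to 11042 at chr1:24611535-24616188 on the minus strand, where 4654 bases were aligned with 2 substitutions and 1 base that the nuclear copy has in addition, inside mt-Tr, and 99.94% of bases were identical. The substitutions are A6393T, in mt-Co1, and T9461C, at the third base of mt-Nd3, counted from the first base of chromosome M with the mitochondrial base first. The pair below is shown because it is one of the few places where a read can tell a mitochondrial transcript from its nuclear copy. The capital marks the base that differs, between the stretch around the start of mt-Nd3 (chrM:9431-9491) and the matching stretch around the start of Gm28438 (chr1:24613087-24613147, minus strand). mt-Nd3 begins at chrM:9459 and Gm28438 at chr1:24613119, so the first part of each line lies outside the gene that names it.
mt-Nd3: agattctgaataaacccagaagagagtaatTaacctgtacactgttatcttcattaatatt
Gm28438: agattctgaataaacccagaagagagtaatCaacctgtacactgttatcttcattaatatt
The next pair, the first 60 bases of mt-Co2 (chrM:7013-7072) and of its copy Gm28661 (chr1:24615506-24615565, minus strand), is shown because it holds 0 differences, so that no read inside it carries information on its origin.
mt-Co2: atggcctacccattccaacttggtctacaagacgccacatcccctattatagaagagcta
Gm28661: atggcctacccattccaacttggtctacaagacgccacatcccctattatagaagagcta

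RSEM, the program behind the deposited counts, divides a read that fits several transcripts among them in fractions. For mt-Co2, whose product is a subunit of complex IV, the annotated copy Gm28661 took between 92.3% and 99.7% of the summed counts of the pair, depending on the library. For mt-Co3, another complex IV subunit, the share given to Gm28437 ran from 53.6% to 100.0%, and the level left to mt-Co3 itself ran from 0.113 to 756 CPM (counts scaled to the library total). The shares were 63.1% to 91.7% for mt-Atp6 and Gm10925, and 52.4% to 96.8% for mt-Nd4l and Gm10222. The 4 genes were thus measured as pairs, and what stood in the mt- gene alone changed between replicates. RSEM's own posterior standard deviation, as a percentage of the expected count, had a median over the libraries of 219% for mt-Co2, 72% for mt-Co3, 15.6% for mt-Atp6 and 11% for mt-Nd4l, against at most 0.134% for each of the other coding genes. For mt-Co1, 31.3% of the gene lies in the copied stretch, and Gm29216 held 10.9% to 16.9% of the pair. Gm28438 and Gm28439, copies of mt-Nd3 and of part of mt-Nd4, held at most 24 and 14 counts in any library.

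**Figure D1:**
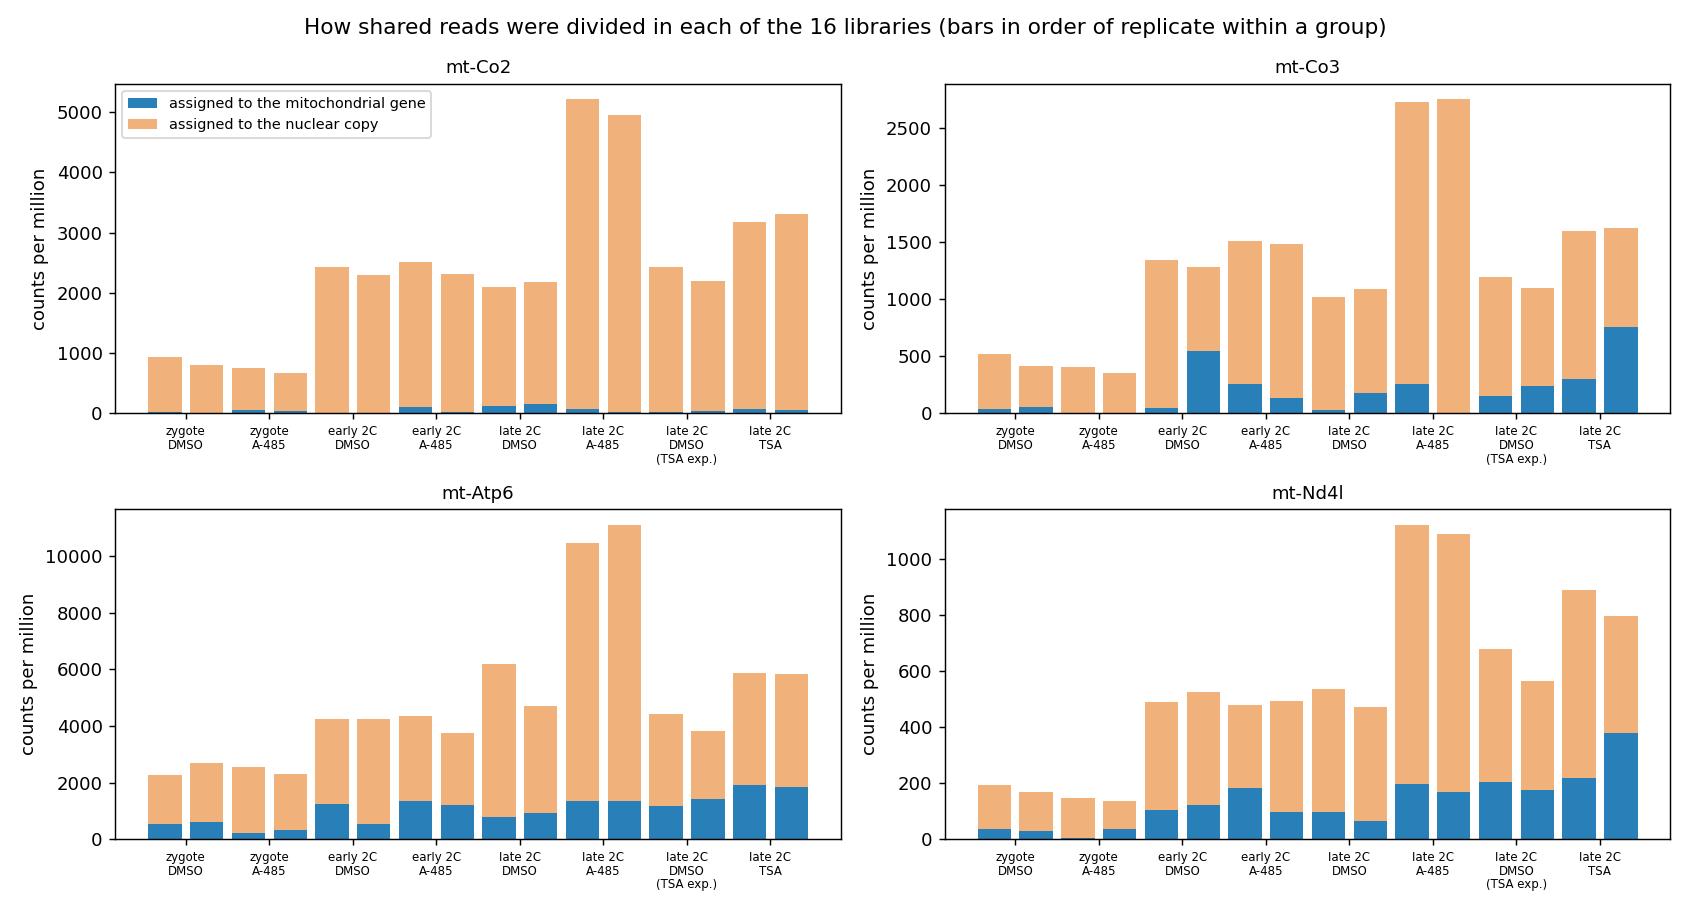
CPM given to each mitochondrial gene (blue) and to its nuclear copy (orange) in the 16 libraries, stacked, for mt-Co2, mt-Co3, mt-Atp6 and mt-Nd4l, with libraries along the horizontal axis by group. The stacked totals of replicates lie close together, while the blue part of mt-Co3 runs from 0.113 to 756 CPM.

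For this reason each of these genes was tested both with the counts as deposited and with the counts of its copies added, and values below are with the copies added unless they are said to be as deposited. mt-Atp8 and the transfer RNA genes mt-Ts1, mt-Td, mt-Tk, mt-Tg and mt-Tr also lie wholly inside the copied stretch but have no annotated copy, so their counts could not be split in this way and hold reads from both places, if both are transcribed.

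Libraries held between 13206163 and 32585987 expected counts. Amounts are relative to the other RNA in a library, since no spike-in is described, so that a higher level of mitochondrial RNA per embryo and a lower level of the other RNA cannot be told apart. Markers of the egg and early embryo were present in every library, with a summed level of 346 to 2304 FPKM (fragments scaled for gene length and library depth) over 6 genes. Summed markers of cumulus cells (6 genes), sperm (4 genes) and fibroblasts (4 genes) reached at most 3.25, 18.8 and 2.64 FPKM. Nothing states that replicates came from separate cultures, so p-values measure only the spread between these pairs of libraries.

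Compared per length, the coding genes kept mt-Atp6 and mt-Cytb near the top in all 8 groups and mt-Nd6 at the bottom in 6 of them. In DMSO late 2-cell embryos of the A-485 experiment, mt-Atp6, a subunit of ATP synthase, had a mean FPKM with copies added of 11376 ± 2214 (SD, n = 2). Next came mt-Cytb, the mitochondrial subunit of complex III, at 6881, mt-Nd4l at 5040.1, mt-Co2 at 4443 and mt-Nd1 at 3831, and each of these was separated from its neighbour in both libraries. mt-Nd4, mt-Nd3, mt-Co1 and mt-Nd2 followed at 2817, 2754, 2584 and 2534 FPKM, and within this run each overlapped its neighbour. The FPKM of mt-Co1 and mt-Nd4 is as deposited, since Gm29216 and Gm28439 match only 31.3% and 63.6% of them. Gm29216 held 13.6% and 12% of the counts of mt-Co1 with its copies in these libraries, so the place of mt-Co1 in this run is not settled. mt-Nd6 was at the bottom of the order, at 1432 FPKM, and overlapped mt-Nd5, at 1634. In zygotes in DMSO, the order began in the same way with mt-Atp6 at 5085 and mt-Cytb at 2627 FPKM and ended with mt-Nd6 at 576 FPKM. mt-Atp8 was listed at 32463 FPKM in the late group, but its length after correction for fragment size was only 21.7 to 67.6 bases, so its FPKM depends on that correction and was not placed in the order. mt-Nd4l was kept in the order, but its corrected length was 102 and 103 of 297 bases in the late DMSO libraries. Its place therefore depends on the correction as well and is not settled.

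Of the 2 stage differences in DMSO, that across the first cleavage was the larger one for the coding genes. The 13 coding genes with their copies took 1.42% and 1.32% of all counts in the 2 DMSO zygote libraries, 3.26% and 3.05% at the early 2-cell stage, and 3.37% and 3.11% at the late 2-cell stage of the A-485 experiment. The 2 ribosomal RNAs, which the kit's probes against ribosomal sequence leave in part, took 3.93% and 3.58%, 8.56% and 8.26%, and 9.84% and 8.19%. Thus both classes stood about as high at the late as at the early 2-cell stage, and the libraries of these stages overlapped, whereas those of zygotes lay below. With 2 libraries a group, the smallest p that a two-sided exact permutation test of such shares can give is 0.333, and no test of shares was made.

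**Figure D2:**
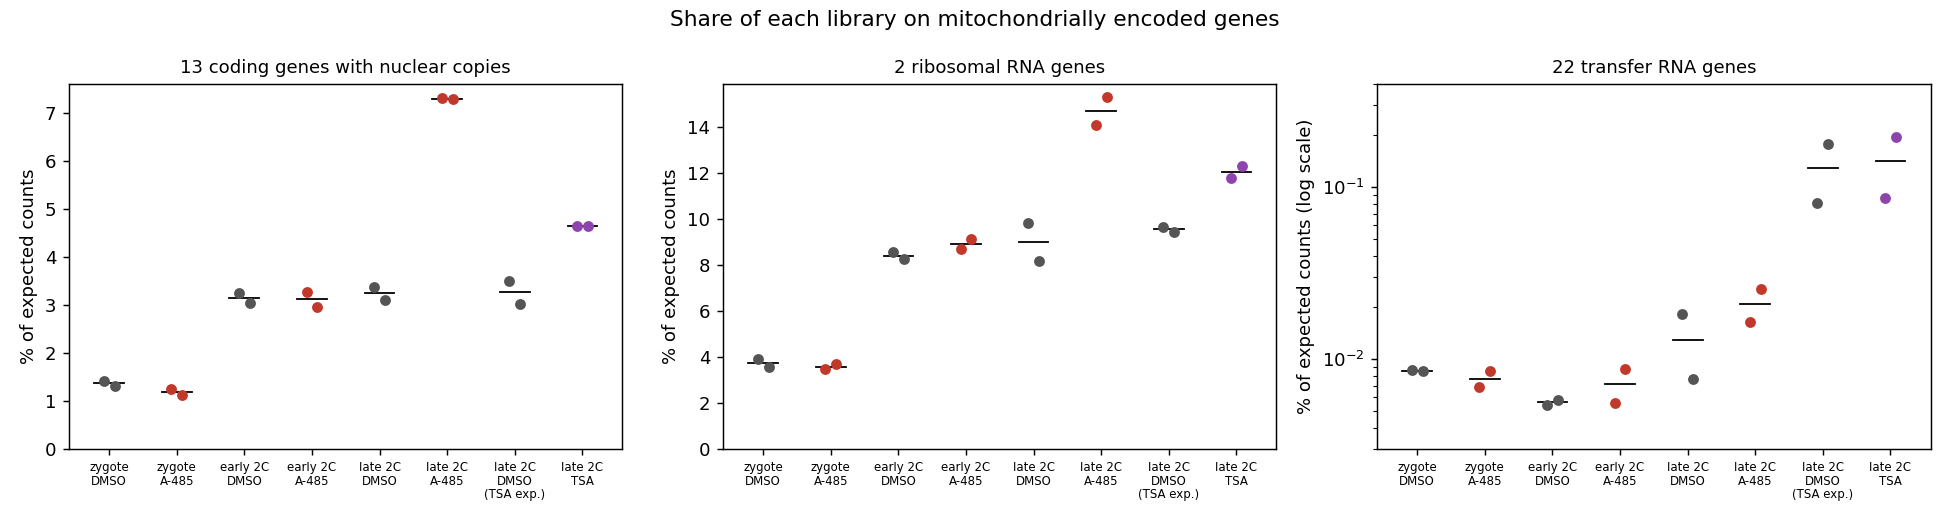
Percentage of all expected counts held by the coding genes with their nuclear copies, by the ribosomal RNAs and by the transfer RNAs in each of the 16 libraries (points, by group; lines, means of 2). The coding share lies between 1.12% and 1.42% in zygotes, between 2.96% and 3.5% in the 2-cell groups in DMSO and in early 2-cell embryos in A-485, at 4.65% in TSA and at 7.29% and 7.3% in late 2-cell embryos in A-485.

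Gene by gene, from DMSO zygotes to DMSO early 2-cell embryos, 13 of 13 coding and 2 of 2 ribosomal genes rose (edgeR quasi-likelihood test, Benjamini-Hochberg adjusted p under 0.05 over all genes), where 22.7% of all genes tested were called higher. The log2 fold changes ran from 0.88 ± 0.0757 (SE) for mt-Atp6 to 1.60 ± 0.0894 for mt-Co3, beside a median over all genes of 0.08. mt-Rnr1 and mt-Rnr2, the RNAs of the small and large mitochondrial ribosomal subunits, changed by 1.27 and 1.25. All 13 coding genes were still called higher without any 1 of the 4 libraries, and as deposited 12 were. Scaled to the coding mitochondrial genes themselves, mt-Atp6 was lower by 0.42 on the log2 scale (adjusted p = 0.00468 by edgeR), where 52.7% of all genes were called lower on this scale, and it was not called, at -0.24, without the second zygote library. On the same scale mt-Co3 and mt-Nd4l were higher by 0.30 and 0.28, where 8.52% of all genes were called higher, and lost the call without the second zygote or the second early 2-cell library, mt-Nd4l also without the first zygote library.

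From the early to the late 2-cell stage in DMSO, most coding genes gave no call. mt-Atp6 rose by 0.36 ± 0.119 and mt-Co3 fell by 0.32 ± 0.0848 on the log2 scale (edgeR adjusted p = 0.0337 and 0.0096), where 20.6% and 15.7% of all genes were called higher and lower. Each rested on single libraries: mt-Atp6 was at 0.11 and not called without the first late library, nor without the second early library, and mt-Co3 was not called, at -0.27, without the first early library. For the other 11 coding genes the values lay between -0.17, for mt-Nd1, and 0.21, for mt-Cytb. With the late 2-cell DMSO libraries of the TSA experiment in place of those of the A-485 experiment, and counts as deposited, 7 coding genes were called in place of 1. Calls rose over all genes too, to 5456 higher and 4169 lower in place of 4181 and 3173.

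In A-485, the passage from zygote to early 2-cell went with higher levels of 13 of 13 coding genes (22.5% of all genes called higher, 23.5% lower), by 0.94 to 2.17 on the log2 scale. From the early to the late 2-cell stage in A-485, 12 of 13 coding genes rose (16.8% of all genes called higher), by 0.49 for mt-Atp8 to 1.20 for mt-Nd5, and mt-Rnr1 and mt-Rnr2 rose by 0.35 and 0.48. The gene left out was mt-Nd6, at -0.14 ± 0.104 (edgeR adjusted p = 0.337), and it was called lower, at -0.35, without the second late library, where 15.5% of all genes were called lower with all libraries (15.4% as deposited).

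In zygotes, 1 of 13 coding genes was called between A-485 and DMSO. The coding share with copies was 1.25% and 1.12% in A-485 against 1.42% and 1.32% in DMSO, lower in each library of A-485. mt-Atp8, a small subunit of ATP synthase, stood at 306 and 317 CPM in A-485 against 478 and 399 CPM in DMSO. It was the gene called, with a log2 fold change of -0.48 ± 0.0754 (edgeR adjusted p = 0.0308), where 0.0767% of all genes were called lower and 0.00548% higher, and it was called without any 1 of the libraries. The other 12 lay between -0.42, for mt-Nd3, and 0.17, for mt-Nd6, and the ribosomal RNAs at -0.06 and -0.07. More coding genes were called lower without the second DMSO library or without the first A-485 library. As deposited, the median of the coding genes was -0.33 and -0.31 in these fits, against -0.24 with all libraries. Over all fits that left out 1 library it ran from -0.33 to -0.17, beside -0.02 to 0.00 for all genes. As deposited, 1 coding gene was called higher and 3 lower, where 0.011% and 0.0876% of all genes were, but of these calls mt-Co2 (2.05), mt-Co3 (-4.1) and mt-Atp6 (-1.08) went to -0.29, -0.28 and -0.02 once the copies were added.

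At the early 2-cell stage the coding share was 3.27% and 2.96% in A-485 and 3.26% and 3.05% in DMSO, and the groups overlapped. mt-Co3 with its copy stood at 1510.0 and 1485 CPM in A-485 and at 1348 and 1287 CPM in DMSO. Its log2 fold change of 0.20 ± 0.0591 was the one call (edgeR adjusted p = 0.0433), where 1.8% of all genes were called higher, and it was not called without the second DMSO or the first A-485 library. Without the first A-485 library 2 coding genes were called lower, where 10.3% of all genes were with all libraries. The other 12 coding genes ranged from -0.10, for mt-Nd5, to 0.18, for mt-Co1. As deposited, the only coding gene called was mt-Co2, at 2.62, where 1.77% of all genes were called higher and 10.2% lower, and with its copy mt-Co2 came to 0.05. In the same libraries, markers of the 2-cell embryo (6 genes) summed to 27.3 to 28.6 FPKM in A-485 and to 455 to 491 FPKM in DMSO.

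At the late 2-cell stage, after removal of A-485, the coding genes stood well above their DMSO level. mt-Nd1, a core subunit of complex I, was at 7682 and 7896 CPM in A-485 and at 2931 and 2866 CPM in DMSO. mt-Co1, the catalytic subunit of complex IV, was at 9666 and 8915 against 3767 and 4198 CPM with its copies. mt-Cytb was at 13503 and 13467 against 6775 and 6209 CPM. For each of these genes both A-485 libraries lay above both DMSO libraries, and so they did for 44.2% of all genes with at least 10 counts, as deposited. mt-Atp6 with its copy was at 10463 and 11096 against 6178 and 4697 CPM, and mt-Co2 with its copy at 5214 and 4950.3 against 2099 and 2173 CPM. The coding share with copies was 7.30% and 7.29% in A-485 and 3.37% and 3.11% in DMSO, a ratio of the means of 2.25.

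In the test, 12 of 13 coding genes were called higher and 0 lower in late 2-cell A-485 embryos, where 17% of all genes were called higher, and 12 were called without any 1 of the 4 libraries. The log2 fold change was 1.23 ± 0.069 for mt-Nd1 (edgeR adjusted p = 4.37e-08), 1.19 for mt-Co3, 1.13 for mt-Nd3, 1.09 for mt-Nd5, 1.06 for mt-Nd4 and for mt-Co2, 1.04 for mt-Nd2 and 1.03 for mt-Co1. Smaller values were those of mt-Nd4l (0.94), mt-Cytb (0.86), mt-Atp6 (0.79) and mt-Atp8 (0.70). Fragments averaged 219.5 and 212 bases in A-485 and 202 and 201 bases in DMSO. By mean FPKM, which corrects for length, mt-Nd4l was at 12446 against 5040.1 and mt-Cytb at 14519.8 against 6881. mt-Atp6 was at 23259 against 11376 and mt-Atp8 at 74603 against 32463. Which of these genes rose least thus depends on the measure, and the part of fragment length was not tested. The median over the coding genes was 1.04 and that over all genes 0.28. Relative to the median of all genes, the coding median as deposited was higher by 0.71 to 0.72 under the 4 scalings tried. A scaling moves all genes by about the same amount, so this gap could hardly differ between them. The median of all genes itself moved from 0.28 to 0.47. The gap was 0.48 without the low-count filter and 0.44 against the late 2-cell DMSO libraries of the TSA experiment. As deposited, 10 coding genes were called higher and 1, mt-Co2 at -1.81, lower, where 20.4% of all genes were called lower.

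Summed markers of the egg and embryo stood at 689 to 712 FPKM in A-485 and 362 to 393 FPKM in DMSO at this stage, and those of the 2-cell embryo at 57.7 to 78.1 against 270.1 to 301 FPKM. Those of cumulus cells stood at 3.08 to 3.25 FPKM in A-485, with 2 of the 6 genes at 0, against 0.2 to 1.07 FPKM with 3 at 0 in DMSO, and those of fibroblasts at 0.28 to 0.47 against 0.05 to 0.1 FPKM, with 2 of 4 at 0 in both groups. Their part in the difference of the mitochondrial genes was not tested. Set against the late 2-cell DMSO libraries of the TSA experiment instead, and with counts as deposited, mt-Nd1 (1.19), mt-Co1 (1.09), mt-Nd5 (0.99), mt-Nd4 (0.95), mt-Nd3 (0.84), mt-Cytb (0.81) and mt-Nd2 (0.66) were again higher, while mt-Atp8 was at -0.06, mt-Atp6 at -0.19 and mt-Nd4l at -0.32, the last of these called lower (edgeR adjusted p = 0.0355). With copies added, mt-Atp6 was at 10463 and 11096 CPM in A-485 against 4414 and 3825 CPM in those control libraries. mt-Nd4l with its copy was at 1120.1 and 1087 against 678 and 563 CPM, so both genes were higher in A-485 on this scale. No test with copies added was made against that control. Fragments averaged 157 and 147 bases in those control libraries and 219.5 and 212 bases in the A-485 libraries, and mt-Atp8 is among the shortest coding genes. The part of fragment length was not tested.

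**Figure D3:**
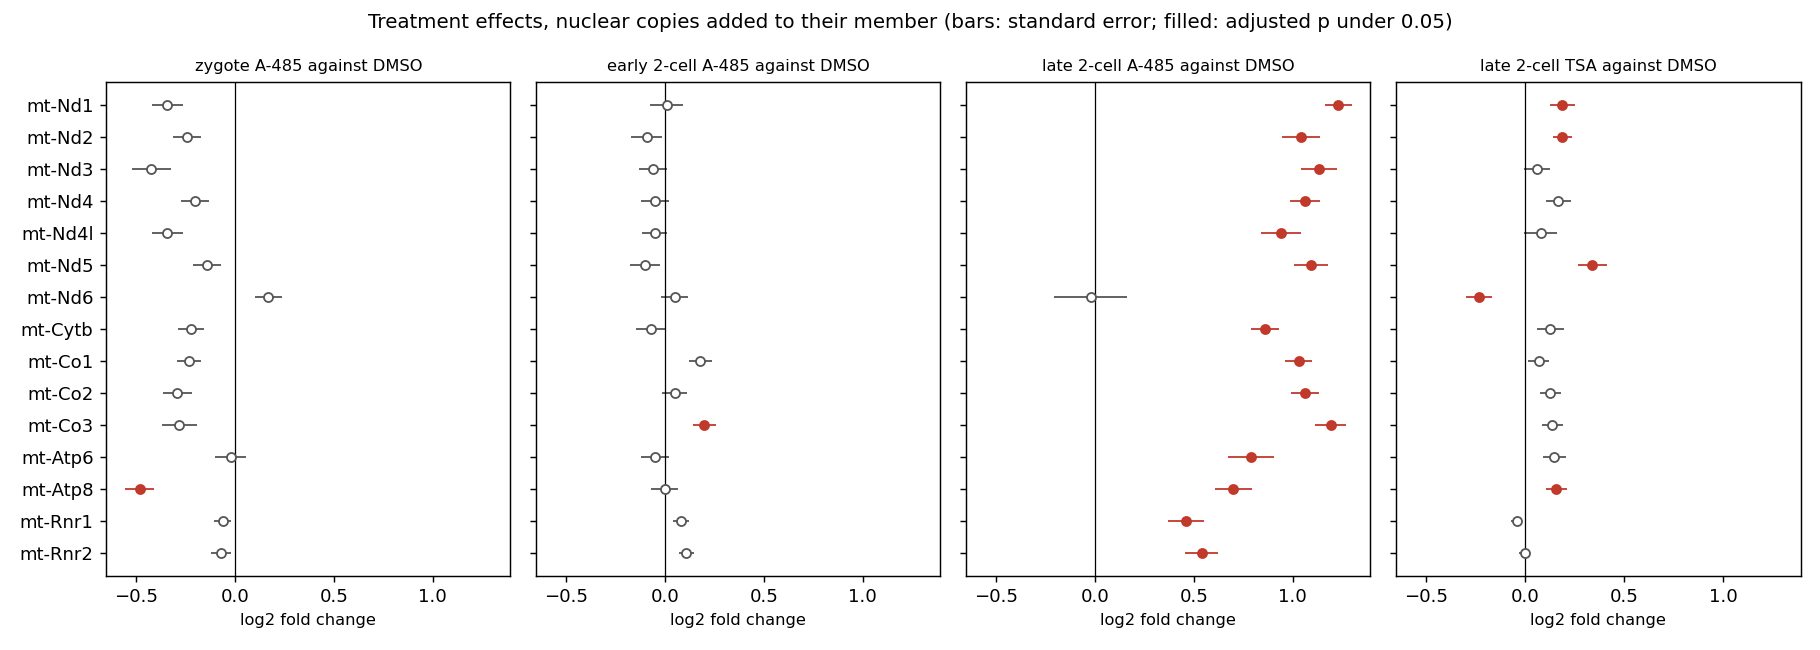
Log2 fold change with its standard error (edgeR, copies added) of the 13 coding and 2 ribosomal genes in the 4 comparisons of an inhibitor with DMSO. In late 2-cell A-485 embryos the coding genes other than mt-Nd6 lie between 0.70 and 1.23, while in TSA the coding genes lie between -0.23 and 0.34.

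mt-Nd6, the complex I subunit encoded on the other strand from the remaining coding genes, did not follow them. Its level was 449.7 and 582 CPM in late 2-cell A-485 embryos and 548 and 365 CPM in DMSO, so the groups overlapped. The log2 fold change was -0.02 ± 0.183 (edgeR adjusted p = 0.936), and it ran from -0.29 to 0.38 when each library was left out in turn. Its share of the coding counts was 0.616% and 0.798% in A-485 against 1.62% and 1.17% in DMSO, and it lay between 1.17% and 1.96% in the 14 libraries of the other groups. Scaled to the coding mitochondrial genes, mt-Nd6 was lower in A-485 by 0.98 ± 0.157 on the log2 scale (edgeR adjusted p = 8.85e-05), where 36.1% of all genes were called lower on this scale. Without any 1 of the 4 libraries it was still called, at -0.73 to -1.20. Its neighbours on the genome, which are transcribed from the opposite direction, moved otherwise: mt-Nd5 was at 6490.2 and 6396 CPM in A-485 against 2829 and 2476 CPM in DMSO. Reads of mt-Nd6 cannot be told from antisense RNA of the opposite strand unless the counting used strand, which is not stated for these files.

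**Figure D4:**
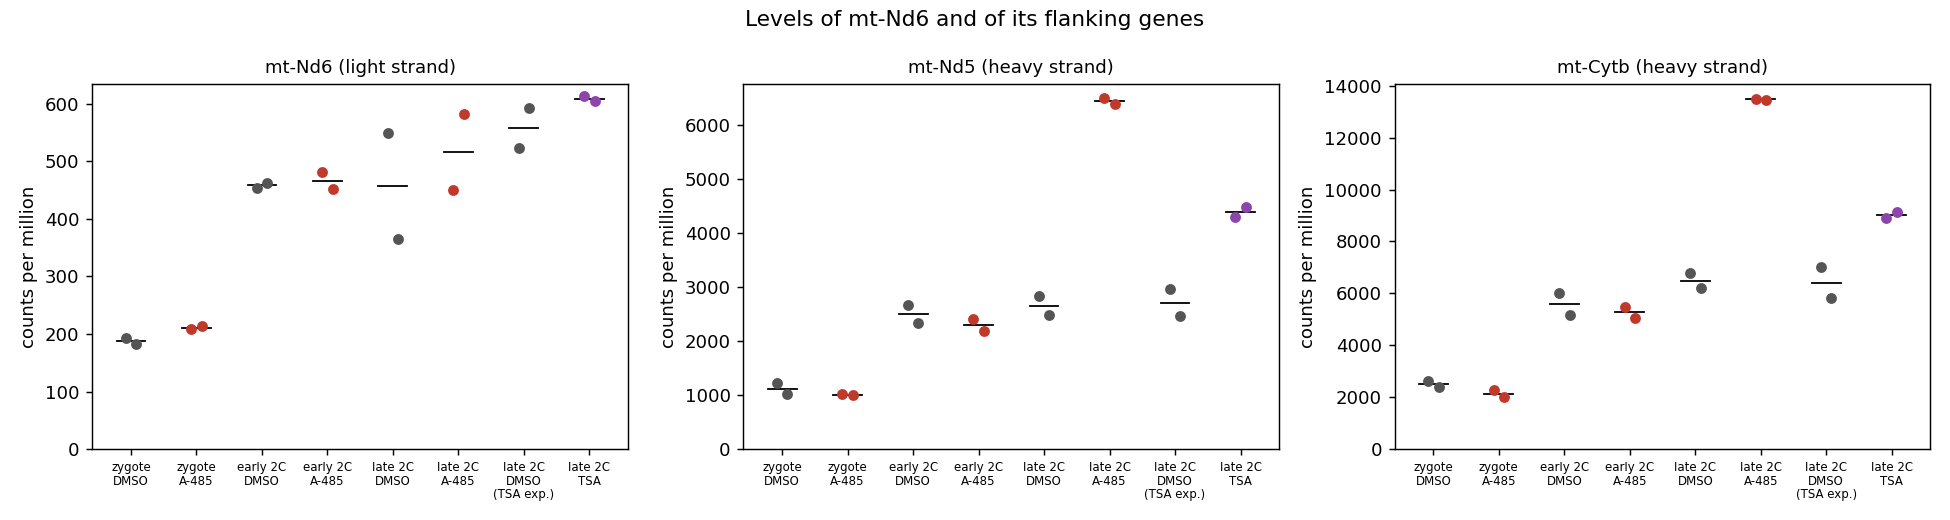
CPM of mt-Nd6 and of its flanking genes mt-Nd5 and mt-Cytb in the 16 libraries (points; bars, means of 2), each on its own vertical axis from 0. In late 2-cell A-485 embryos mt-Nd5 and mt-Cytb reach 6490.2 and 13503 CPM, while mt-Nd6 lies at 449.7 and 582 CPM, overlapping its DMSO libraries.

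The ribosomal RNAs rose by less than most coding genes in late 2-cell A-485 embryos. mt-Rnr2 was at 91848 and 102838 CPM in A-485 and at 63644 and 53747 CPM in DMSO, and mt-Rnr1 at 48866 and 49947 against 34741 and 28115 CPM. The log2 fold changes were 0.54 ± 0.0844 and 0.46 ± 0.0905 (edgeR adjusted p = 0.000307 and 0.00166). The ratio of ribosomal to coding counts was 1.93 and 2.1 in A-485 and lay between 2.53 and 3.28 in all other libraries. Scaled to the coding genes, mt-Rnr1 and mt-Rnr2 were lower by 0.51 and 0.44 (edgeR adjusted p = 1.37e-06 and 5.06e-06), mt-Atp8 by 0.28, and mt-Nd1 was higher by 0.25, where 7.08% of all genes were called higher. Of these, mt-Nd1 was not called without the second A-485 library, and mt-Atp8 without the first A-485 or the second DMSO library. The corrected length of mt-Atp8 was 21.7 and 25.6 bases in A-485 against 29.2 and 29.1 bases in DMSO, and its part in this value was not tested. The ratio of mt-Rnr2 to mt-Rnr1 itself stayed between 1.7 and 2.06 over the 16 libraries. How completely probes removed ribosomal sequence from each library is not recorded, and its part was not tested.

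The difference between stages in the A-485 effect was tested as an interaction. Between the late and the early 2-cell stage it was called for 12 of 13 coding genes, where 10.1% of all genes were called higher and 9.9% lower, with values from 0.79 for mt-Atp8 to 1.31 for mt-Nd1, and for both ribosomal RNAs, at 0.46 and 0.51, beside a median over all genes of 0.44. The 12 coding genes were called without any 1 of the 8 libraries, whereas the ribosomal RNAs lost the call without the first early DMSO library or the second late DMSO library, at 0.04 and 0.11 at the lowest. mt-Nd6 was at 0.02 ± 0.199, and was called lower, at -0.52, without the second late DMSO library. Between the early 2-cell stage and the zygote the interaction was called for mt-Co1 (0.47), mt-Co2 (0.39), mt-Atp8 (0.54) and mt-Co3 (0.54), where 1.04% of all genes were called higher and 4.7% lower (1% and 4.65% as deposited). mt-Co2 kept the call in 3 of the 8 fits that left out 1 library and mt-Co3 in 6, and mt-Co1 and mt-Atp8 in all 8. Fewer coding genes were called without the first DMSO zygote library or the second A-485 zygote library, with medians as deposited of 0.27 and 0.30. More were called without the other library of either group, with medians of 0.56 and 0.55.

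In late 2-cell embryos in TSA, the coding genes took a larger share of the counts, but little of this was left once libraries were scaled on all genes. The coding share with copies was 4.65% and 4.65% in TSA and 3.50% and 3.03% in DMSO, and the ribosomal share 11.8% and 12.3% against 9.67% and 9.44%. mt-Nd1 was at 4311 and 4059.9 CPM in TSA against 3080.4 and 2636 CPM, and mt-Nd5 at 4305 and 4473 against 2969 and 2458 CPM. On the CPM scale, as deposited, 13 of 13 coding genes lay above DMSO in both libraries, and so did 52.1% of all genes with at least 10 counts. The median log2 fold change of all genes was 0.13 with TMM scaling and 0.48 with total counts.

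With TMM scaling, 4 of 13 coding genes were called higher and 1 lower in TSA, where 21.7% and 21.5% of all genes were called higher and lower. The 4 were mt-Nd5 (0.34 ± 0.0728, edgeR adjusted p = 0.00319), mt-Nd1 (0.19), mt-Nd2 (0.19) and mt-Atp8 (0.16). mt-Nd6 was the one called lower, at -0.23 ± 0.0667 (edgeR adjusted p = 0.0176), although its CPM was 613 and 604 in TSA against 522 and 593 in DMSO. Its sign depended on the scaling, since with total counts it was at 0.13. The calls rested on the DMSO libraries, since most were lost without the second and more were made without the first. As deposited, the median of the coding genes was 0.10 without the second and 0.27 without the first, beside 0.17 and 0.16 over all genes. Relative to the coding mitochondrial genes mt-Nd6 was lower by 0.40 (edgeR adjusted p = 0.0355). On this scale 23.6% of all genes were called lower and 20% higher, and mt-Nd6 kept the call only without the first DMSO library, where the value was -0.58. The ribosomal RNAs were at -0.04 and 0.00 with TMM and at 0.31 and 0.35 with total counts. As deposited, 6 coding genes were called higher and 1 lower, where 21.4% of all genes were called lower. Summed markers of red blood cells (4 genes) were at 43.3 to 45.6 FPKM in TSA and 0.57 to 1.29 FPKM in DMSO, with 2 of the 4 at 0 in TSA, and their part was not tested.

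The A-485 and TSA effects at the late 2-cell stage came from different windows of exposure and each had its own DMSO control. Their difference was called for 12 of 13 coding genes, where 4.61% of all genes were called higher and 12.8% lower (4.59% and 12.7% as deposited), from 0.43 for mt-Atp8 to 0.97 for mt-Nd3, and for mt-Rnr1 (0.39) and mt-Rnr2 (0.43). For mt-Nd6 it was 0.10 ± 0.219 (edgeR adjusted p = 0.881). mt-Atp8, mt-Atp6 and mt-Rnr1 were not called without the second A-485 library, nor without the first DMSO library of the TSA experiment. The median over all genes was -0.01. Between the late 2-cell DMSO groups of the 2 experiments, mt-Atp8 alone among the coding genes was called with copies added, at 0.70 ± 0.0807, where 1.67% of all genes were called higher and 0.683% lower, and the coding shares overlapped. The corrected length of mt-Atp8 was 57.3 and 66.1 bases in the TSA experiment's DMSO libraries against 29.2 and 29.1 bases in the others. By mean FPKM mt-Atp8 went the other way, at 25106 against 32463. The part of fragment length in this call was not tested.

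The transfer RNAs were measured far less well than the other classes. Together they took between 0.00539% and 0.197% of the counts of a library, and 11 of the 22 had at least 10 counts in every library of all 8 groups, although each had so in at least 1 group. A transfer RNA is shorter than nearly all fragments of these libraries, so a read mapped to it comes from a short fragment or from a precursor, and the deposited length after correction was 0 bases for 21 of the 22 genes. Their FPKM is therefore not usable, and only counts were compared. The 2 most abundant, mt-Tp and mt-Tg, held 59.1% to 75.5% of transfer RNA counts, and are shown with mt-Tv, which lies between the ribosomal RNA genes. The capitals mark the anticodon, and the sequences are read from GRCm38 at chrM:15356-15422 (minus strand), chrM:9391-9458 and chrM:1025-1093.
mt-Tp: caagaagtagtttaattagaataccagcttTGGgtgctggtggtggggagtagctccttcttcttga
mt-Tg: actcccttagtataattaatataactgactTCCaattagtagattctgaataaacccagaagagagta
mt-Tv: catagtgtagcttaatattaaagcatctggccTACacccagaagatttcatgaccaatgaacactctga

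mt-Tg, the transfer RNA for glycine, was lower at the early 2-cell stage than before or after it. It was at 36 and 38.5 CPM in DMSO zygotes, at 8.56 and 12.6 CPM in DMSO early 2-cell embryos, and at 81.9 and 15.2 CPM at the late 2-cell stage of the A-485 experiment. From zygote to early 2-cell it changed by -1.73 ± 0.192 on the log2 scale (edgeR adjusted p = 6.42e-06), against the direction of all 13 coding genes, and in A-485 by -1.54 ± 0.269 (edgeR adjusted p = 0.000395). From the early to the late 2-cell stage it was higher by 2.23 ± 0.561 in DMSO (edgeR adjusted p = 0.00775), with late libraries that differed widely, and by 2.22 ± 0.312 in A-485. mt-Tg lies inside the copied stretch on chromosome 1, so part of its reads may come from there.

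mt-Tp, the transfer RNA for proline, lies on the light strand and outside the copied stretch. It was at 25 and 23.5 CPM in DMSO zygotes, at 23.3 and 21.9 CPM in DMSO early 2-cell embryos, and at 46 and 30.4 CPM at the late 2-cell stage. The last step was called, at 0.76 ± 0.222 (edgeR adjusted p = 0.0176). In A-485, 3 transfer RNAs rose from zygote to early 2-cell, namely mt-Tp (0.96), mt-Ta (1.08) and mt-Ti (1.04), and 6 rose from early to late 2-cell, where 22.5% and 16.6% of all genes were called higher. In the 4 comparisons of an inhibitor with DMSO, 0 of the 19 to 22 transfer RNAs that could be tested were called by edgeR, 0 to 2 had an unadjusted p under 0.05, and DESeq2 called 1, mt-Tp in late 2-cell A-485 embryos, at 57.8 and 78.1 CPM against 46 and 30.4 CPM in DMSO. Over all genes, edgeR called 2 higher and 16 lower in zygotes and 370 and 2138 at the early 2-cell stage in A-485. At the late 2-cell stage it called 3874 and 4664 in A-485 and 5087 and 5019 in TSA. In these comparisons 18243 to 23404 genes had at least 10 counts. The 2 transfer RNAs in A-485 at the late 2-cell stage that could not be tested were mt-Tr and mt-Ts2.

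The transfer RNA counts separated the libraries of the 2 experiments rather than the treatments. The share was 0.0809% and 0.178% in the DMSO libraries of the TSA experiment, and 0.0861% and 0.197% in TSA, against 0.0182% and 0.00768% in the late 2-cell DMSO libraries of the A-485 experiment. Between the DMSO groups of the same stage, 20 of 22 transfer RNAs were called higher in the TSA experiment, by 2.29 to 5.27 on the log2 scale over the 22, with a median of 3.62, where 1.68% of all genes were called higher and 0.688% lower. mt-Tp was at 301 and 773 CPM in the DMSO libraries of the TSA experiment and mt-Tv at 52 and 94.5 CPM, against 9.1 and 2.91 CPM for mt-Tv in those of the A-485 experiment. Mean fragment length was 145 to 158 bases in the libraries of the TSA experiment and 191 to 219.5 bases in the others. Within the TSA experiment, the second replicate of each group, with fragments of 147 and 145 bases, had 2.19 and 2.28 times the transfer RNA share of the first, with fragments of 157 and 158 bases, and 22 of 22 genes were higher in it. In the late 2-cell DMSO group of the A-485 experiment, replicates with fragments of 202 and 201 bases differed about as widely, the second having 0.423 times the share of the first, and in the other 5 groups the ratio was 0.987 to 1.58. Stage is the same and fragment length and experiment changed together, so these cannot be told apart between the experiments.

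**Figure D5:**
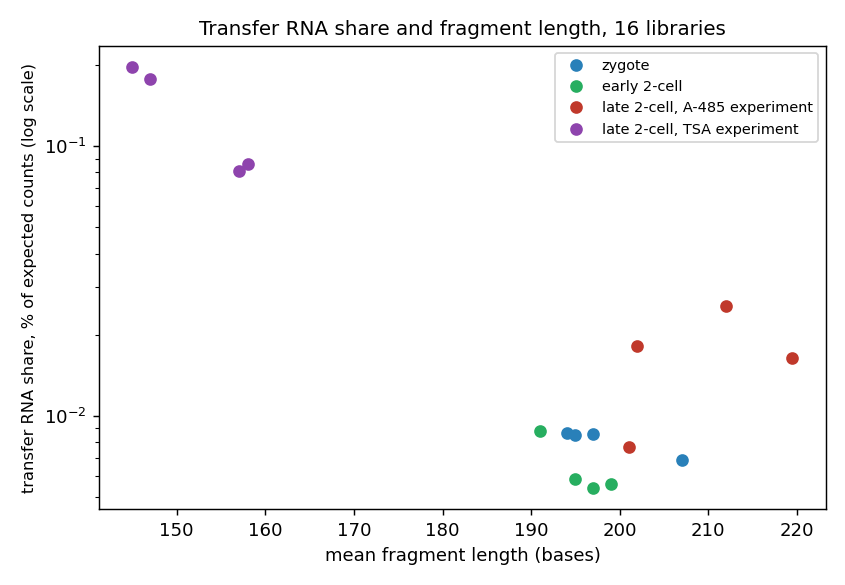
Transfer RNA share of all counts (log axis, %) against the mean fragment length of the library (bases), for the 16 libraries, coloured by stage and experiment. The 4 libraries of the TSA experiment lie at 145 to 158 bases and 0.0809% to 0.197%, and the other 12 at 191 to 219.5 bases and at most 0.0256%.

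The nuclear genes that transcribe, process and translate mitochondrial RNA did not move as a block with the mitochondrial genes. Of a list of 67 genes, 65 were matched, and at the late 2-cell stage in A-485, 8 of 64 tested were higher and 20 lower, where 17% and 20.4% of all genes were, with a median log2 fold change of -0.37 beside 0.28 over all genes. Polrmt, the mitochondrial RNA polymerase, was at 0.83 and 0.63 FPKM in A-485 against 23.4 and 28.5 FPKM in DMSO (log2 fold change -5.91 ± 0.417, edgeR adjusted p = 3.73e-07). Tfam, which packages mitochondrial DNA and helps start its transcription, was at 12.7 and 24.6 against 4.16 and 0.84 FPKM, and Mtpap, the mitochondrial poly(A) polymerase, at 20.7 and 18.4 against 7.33 and 7.26 FPKM. Both were called higher, at 2.88 and 1.34 on the log2 scale, as was Mterf2 (4.41), while Gtpbp3 (-3.87), a transfer RNA modification enzyme, and Mrpl12 (-3.83), a protein of the mitochondrial ribosome, were called lower.

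In TSA, 7 of 65 such genes were higher and 36 lower, where 21.7% and 21.4% of all genes were, with a median of -0.72 beside 0.13 over all genes. Polrmt was at 2.35 and 2.35 FPKM against 26.7 and 23.4 FPKM, Tefm, an elongation factor of mitochondrial transcription, at 1.07 and 0.71 against 5.94 and 5.73 FPKM, and Slirp, which binds mitochondrial messenger RNA, at 0.00 and 0.02 against 4.5 and 3.52 FPKM. All 3 were called lower, and Top1mt (3.91), Mterf2 (3.43) and Hsd17b10 (2.66) higher on the log2 scale. At the early 2-cell stage in A-485, 0 of 65 were higher and 5 lower, which is not above the 1.77% and 10.2% of all genes called, and the lower ones included Mtres1 (-2.96), Tefm (-3.00) and Hsd17b10 (-3.78). In zygotes 0 of 62 were called by edgeR or DESeq2, and 1 had an unadjusted edgeR p under 0.05. Over all genes edgeR called 2 higher and 16 lower there. In DMSO of the A-485 experiment, Polrmt was at 3.4 and 3.3 FPKM at the early and at 23.4 and 28.5 FPKM at the late 2-cell stage. Thus Polrmt RNA was below its late 2-cell DMSO level, itself reached after the early stage, in both late groups with an inhibitor. The median log2 fold change of the coding mitochondrial genes was 1.04 in A-485 and, close to the 0.13 over all genes, 0.14 in TSA.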

How the data were processed

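Total RNA libraries were made with the SMART-Seq Stranded kit, and per the labels reads were trimmed with Trimmomatic 0.39, aligned with STAR 2.7.8a to GRCm38 and quantified with RSEM 1.3.1. The authors deposited, per library, RSEM expected counts (estimated, not whole), posterior mean counts with their standard deviations, effective lengths and FPKM values. Strand setting and annotation are not given in the sources used here, and gene identifiers were matched to GENCODE M21 (54487 of 55385). The CUT&RUN files of the series were not used here. Expected counts were rounded and tested with edgeR 4.0.16 (R 4.3.3, quasi-likelihood test, two-sided, TMM scaling, genes with at least 10 counts over the libraries compared), with Benjamini-Hochberg adjustment over all genes. CPM values are expected counts scaled to the library total. Fits within mitochondria scaled libraries to the coding mt- genes. Nuclear copies were annotated transcripts with at least 97% identity over 200 bases (blastn 2.17.0+). Alternatives included DESeq2 1.42.0, other scalings, no low-count filter, a common fit of all libraries, added copies, a replicate block and leaving out each library (with copies added, this was chosen after seeing the data). The late 2-cell DMSO groups were assigned to their experiments from the spelling of their titles. The 13 coding and 2 ribosomal genes were named with their values, transfer RNAs where they had at least 10 counts in every library of a group, and from the nuclear list the 3 genes with the largest change in each direction (adjusted p under 0.05, mean FPKM of at least 1). Members and lists were chosen with earlier results of these data known. The tests were tried on simulated counts with known changes. Replicate numbers were checked for pairing: deviations of same-numbered libraries correlated at -0.03 to 0.09 over 17333 genes.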

Additional observations from a re-analysis of the deposited data

Results flagged for a closer look

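With counts as deposited, the A-485 effect differed between the late and the early 2-cell stage, by the test of the interaction (edgeR, adjusted p under 0.05), for 9 coding and 2 ribosomal genes. Over all genes, 2532 were called higher and 2489 lower. Among the mitochondrial genes called, the differences of the log2 fold changes were positive for mt-Nd1 (1.3), mt-Nd3 (1.27), mt-Nd5 (1.27), mt-Nd2 (1.22), mt-Nd4 (1.19), mt-Cytb (1.01), mt-Co1 (0.95), mt-Atp8 (0.79), mt-Rnr2 (0.51) and mt-Rnr1 (0.46), beside a median of 0.44 over all genes. mt-Co2 gave -4.36 as deposited and 1.10 with its copy added. The copy held 92.3% to 99.7% of the summed counts of this pair, and the cause of the reversal was not tested.

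Between the early 2-cell stage and the zygote, the A-485 effect differed as deposited for mt-Co3 (3.59), mt-Atp6 (1.65), mt-Tp (0.93), mt-Atp8 (0.54) and mt-Co1 (0.46). Over all genes, 231 were called higher and 1070 lower. With copies added, mt-Co3 was at 0.54 and still called, and mt-Atp6 was at 0.02 and not called.

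Between the A-485 and the TSA effect at the late 2-cell stage, the difference as deposited was called for mt-Nd3 (0.97), mt-Nd1 (0.93), mt-Co1 (0.88), mt-Nd4 (0.78), mt-Nd2 (0.74), mt-Nd5 (0.64), mt-Cytb (0.62), mt-Atp8 (0.43), mt-Rnr2 (0.43) and mt-Rnr1 (0.39). Over all genes, 1218 were called higher and 3380 lower. mt-Co2 was at -2.81 as deposited and at 0.82 with its copy added. Dose, window and control libraries all differ between the 2 inhibitors, so their parts cannot be told apart. Groups of 2 libraries were too small for the search for outlying samples.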

How the results depend on the processing

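Counts here are coding genes called of 13, as deposited unless the copies are named, and the cause of a move was not tested. Adding the copies undoes the division of reads. In the main fits as deposited, calls over all genes, higher and lower, were 2 and 16 (zygote A-485) and 370 and 2138 (early A-485). They were 5087 and 5019 (TSA), 4181 and 3173 (early to late), 346 and 142 (late DMSO groups) and 231 and 1070 (early against zygote interaction). With the copies added, the number went from 4 to 1 in zygote A-485, from 1 to 2 from early to late 2-cell in DMSO, from 4 to 1 between the late DMSO groups, and within mitochondria from 3 to 0 (zygote), 2 to 0 (early), 5 to 3 (late A-485) and 3 to 1 (TSA). Over all genes, calls higher and lower were then 1 and 14, 4188 and 3187, and 345 and 141. Within mitochondria they were 46 and 40, 255 and 2139, 1615 and 8238, and 4690 and 5522. Adding copies reversed mt-Co2 in zygote A-485 (2.05 to -0.29), late A-485 (-1.81 to 1.06), early to late DMSO (3.76 to -0.15), the late DMSO groups (-2.43 to 0.12), the late against early interaction (-4.36 to 1.10), the A-485 against TSA interaction (-2.81 to 0.82), and within mitochondria to -0.09 (zygote), 0.08 (late A-485), -0.03 (TSA), 0.24 (zygote to early) and -0.18 (early to late). It reversed mt-Co3 in early A-485 (-0.56 to 0.20), in the A-485 against TSA interaction (-1.10 to 0.94) and within mitochondria in TSA (to -0.02), and mt-Atp6 from early to late in DMSO (-0.08 to 0.36), between the late DMSO groups (0.60 to -0.40) and within mitochondria (to 0.18 in zygotes, -0.06 at the early stage and 0.31 from early to late). Posterior mean counts, an alternative chosen after seeing the data, gave 2 calls in zygote A-485, 0 in early A-485, 3 from early to late and 2 between the late DMSO groups, with mt-Co2 at -0.10 in zygotes and 0.23 in late A-485. Over all genes, these counts gave 1 call higher and 16 lower, 430 and 2258, 4267 and 3339, and 383 and 178.

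Without the low-count filter the number was 9 (zygote A-485), 5 (early A-485), 11 (TSA) and 4 (early to late), with all 16 libraries in 1 fit 2, 3 (TSA) and 1 (late DMSO groups), with total counts 2 (early A-485), 12 (TSA) and 3 (early to late), and with DESeq2 2 (early to late). Over all genes, calls higher and lower without the filter were 32 and 64, 635 and 2497, 5441 and 5252, and 4394 and 3431. In the common fit they were 3906 and 4112 (TSA) and 260 and 288 (late DMSO groups). With total counts they were 290 and 2101, 7489 and 3697, and 4195 and 3189, and with DESeq2 3995 and 3100. Total counts reversed mt-Nd6 (0.13), mt-Rnr1 (0.31) and mt-Rnr2 (0.35) in TSA. With the DMSO libraries of the TSA experiment, also chosen after seeing the data, late A-485 gave mt-Co2 0.54, mt-Atp8 -0.06, mt-Atp6 -0.19 and mt-Nd4l -0.32, and early to late gave 7 calls, with mt-Nd2 at 0.25, mt-Atp8 0.59, mt-Nd3 0.24 and mt-Nd4l 0.79. With copies added, the CPM of mt-Atp6 and mt-Nd4l was higher in late A-485 than in those DMSO libraries, which was not tested. Over all genes, early to late then gave 5456 calls higher and 4169 lower.

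Same-numbered libraries shared only a number. With a replicate block the number was 10 (zygote A-485), 3 (early A-485), 11 (TSA), 5 (early to late), 8 (early against zygote interaction), and within mitochondria 6 (zygote) and 5 (early to late). Over all genes, calls higher and lower with the block were 34 and 69, 514 and 2391, 5138 and 5285, 4352 and 3447, and 436 and 1345. Within mitochondria they were 4621 and 91 (zygote), against 43 and 28 without the block, and 4318 and 3467 (early to late), against 4168 and 3162. The block put mt-Co3 in late A-485 at -1.70.

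Leaving out 1 library at a time changed the number of calls. The median of the coding genes ran from -0.33 to -0.17 in zygote A-485, -0.11 to 0.09 in early A-485, 0.89 to 1.10 in late A-485 and 0.10 to 0.27 in TSA. In DMSO it ran from 1.33 to 1.44 from zygote to early and -0.09 to 0.01 from early to late, and in A-485 from 1.69 to 1.94 and 0.62 to 1.02. Between the late DMSO groups it ran from -0.01 to 0.17. For the interactions it ran from 0.72 to 1.22 (late against early), 0.23 to 0.56 (early against zygote) and 0.48 to 0.78 (A-485 against TSA). Within mitochondria the median ran from 0.00 to 0.04 (zygote), -0.04 to 0.05 (early), -0.08 to 0.05 (late A-485), -0.01 to 0.01 (TSA), -0.03 to 0.11 (zygote to early) and -0.11 to 0.00 (early to late). Outside the fits within mitochondria, the lowest median in zygote A-485 and the lowest in TSA each came without the second DMSO library. Single genes whose sign turned in one of these fits ran as follows. mt-Co3 went from -1.43 to 1.98 in early A-485, -9.71 to 1.84 in late A-485, -3.23 to 1.04 from early to late, -9.07 to 2.22 in the late against early interaction, and within mitochondria from -1.55 to 2.03 (early A-485), -1.22 to 2.36 (zygote to early) and -3.38 to 1.17 (early to late). mt-Atp6 went from -0.01 to 1.23 (zygote to early), -0.58 to 0.67 (early to late), -0.91 to 0.52 (late against early interaction), and within mitochondria from -0.20 to 0.27 (TSA) and -0.49 to 0.58 (early to late). mt-Nd6 went from -0.36 to 0.31 (early to late) and -0.52 to 0.21 (late against early interaction), mt-Rnr1 from -0.15 to 0.24 (early to late) and mt-Rnr2 from -0.08 to 0.23 (late DMSO groups). The lowest values of mt-Co3 in late A-485 and its interaction came without the first A-485 library. Of the other values of single genes, 1336 under these settings and 1010 without a library kept sign and side of the threshold, 102 and 71 newly passed it, and 44 and 43 no longer did.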
